A study of Mus musculus with 208 samples.

Results

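The comparison described here is that of perinatal morphine with perinatal saline in the prefrontal cortex (PFC) of adult mice that had all received lipopolysaccharide (LPS), the cell wall component of Gram-negative bacteria that starts an innate immune response. Its members were the raw-count libraries of the PFC from the MOR-LPS and SAL-LPS groups, less those whose total count was under 0.5 of the median total over all PFC libraries. That left 23 of 26 libraries (14 MOR-LPS, 9 SAL-LPS) out of 208 libraries in the series, and 14178 of the 46403 genes in the table, those averaging 1 CPM or more (counts scaled to the library total) over the kept PFC libraries, were described. Dams were given morphine at 10 mg/kg per day by osmotic minipump, or saline. Their pups went to drug-naive foster dams at birth, received morphine at 10 mg/kg or saline by injection under the skin from postnatal day 1 to 14, and then went through withdrawal without further drug. As adults they received LPS or saline, and tissue was taken 2 h later. All animals were wild-type C57BL/6NTac mice, each library came from the NeuN+ nuclei of 1 animal, and the groups are named by exposure and then challenge, so that MOR-SAL and SAL-SAL are the unchallenged animals. Nuclei positive for NeuN, the neuronal protein encoded by Rbfox3, were sorted from a tissue punch, so glial RNA should be scarce and the RNA measured is nuclear.

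The PFC is the frontal association cortex, whose excitatory projection neurons and GABAergic interneurons carry working memory, control of behaviour and the regulation of stress responses. Opioids act there through the mu, delta and kappa receptors, which couple to inhibitory G proteins. Peripheral LPS is sensed by Toll-like receptor 4 on immune and endothelial cells, and cytokines and glucocorticoids carry the signal to the brain, where NF-kB and STAT transcription factors drive the response.

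The MOR-LPS libraries (7 female, 7 male, 9 litters) held 6243174 to 21988203 counts and the SAL-LPS libraries (5 female, 4 male, 6 litters) 4866542 to 14618761 counts. Every litter had 1 exposure, and the PFC libraries of a litter were of 1 sex, so that sex cannot be told apart from litter and exposure can be compared only between litters. Rbfox3 itself was found in every library, at 743 to 3870 normalized CPM with exposure to morphine (MOR-LPS) and 589 to 4350 without (SAL-LPS), although 2 of 6 pan-neuronal markers were listed at 0. Even so, 10 of the 45 kept PFC libraries had summed oligodendrocyte markers over 3 times the median, 5 of them in MOR-LPS and 2 in SAL-LPS. The rest were SAL-SAL 9-4, 1-3 and 3-0, and no MOR-SAL library was among them. By their Y-linked genes, 2 MOR-SAL libraries went against their labelled sex. A total of 21541 genes were listed at 0 in every PFC library, among them genes as widely expressed as B2m and Tubb3, so a gene listed at 0 is not taken here as unexpressed.

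Very few genes separated the exposed from the control animals after LPS. Gm21984, a noncoding transcript, was the 1 described gene that passed the test, and it was higher in MOR-LPS. B020004J07Rik, below the level of description, also passed, and was lower. By edgeR's quasi-likelihood test with Benjamini-Hochberg adjustment over 21656 genes, 2 were called (0.00924% of those tested; 0.00705% of the genes described). Without adjustment, 339 of the described genes were higher (2.39%) and 295 lower (2.08%) at a p under 0.05, 634 in all (4.47%). Over all genes tested the number was 2747 (12.7%). The median log2 fold change over the described genes was 0.0015, with 7117 above 0 and 7061 below. DESeq2 called 27 genes (0.125%), 15 of them described.

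The error of the fold change depended on expression level. Its median standard error on the log2 scale was 1.05 for the 3259 genes at 1 to 5 CPM and 0.22 for the 1925 genes at 100 CPM or more, so a difference of the same size was far less certain among the scarce transcripts.

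**Figure D1:**
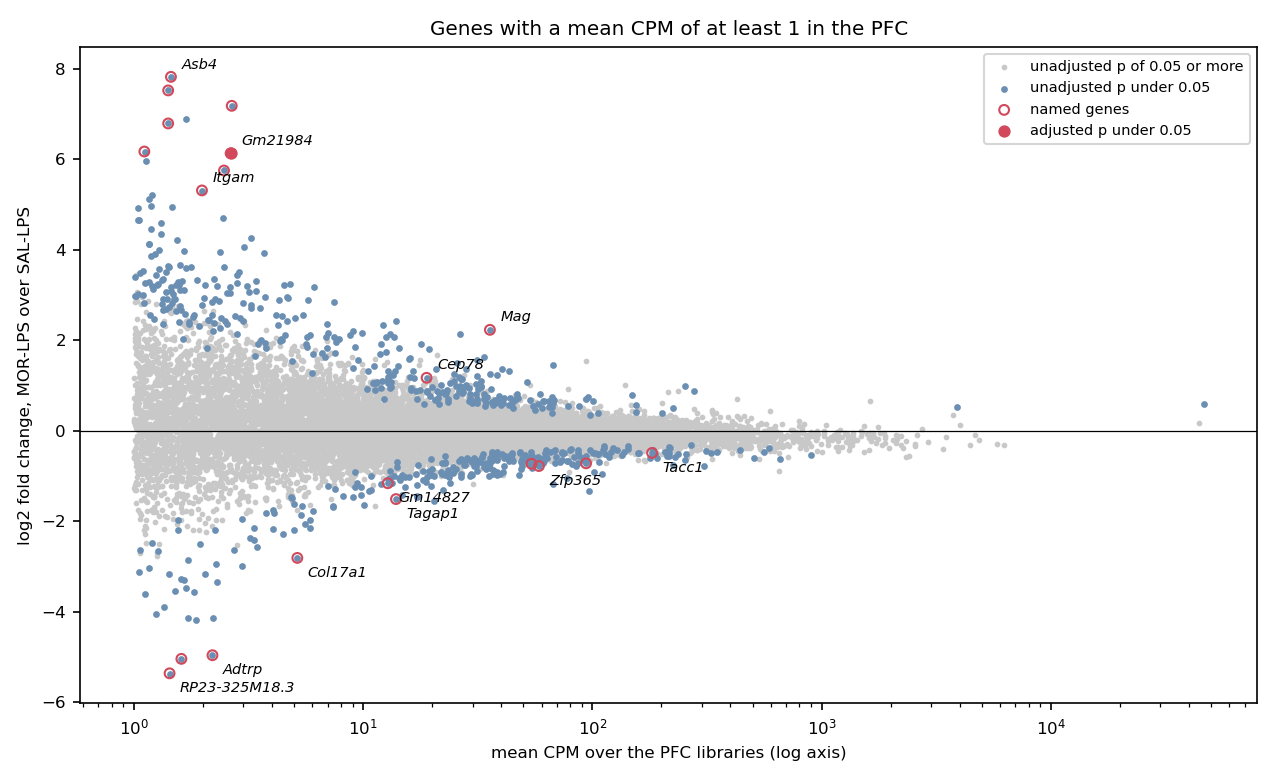
Log2 fold change of MOR-LPS over SAL-LPS against mean CPM over the kept PFC libraries (log axis), 1 point per described gene. Open red circles are the 10 named genes in each direction and the filled one is Gm21984, at 6.13; the spread narrows as the level rises.

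Gm21984 lies at chr7:126942144-126952873 on the plus strand (mm10), where the annotation gives a processed transcript. Its normalized CPM ran from 0 through a median of 3.95 to 6.32 in MOR-LPS and from 0 through 0 to 0.385 in SAL-LPS. It was found in 13 of 14 MOR-LPS libraries (638 counts in all) but in 1 of 9 SAL-LPS libraries (4 counts), and 13 MOR-LPS libraries stood above the highest SAL-LPS one. The log2 fold change was 6.13 ± 1.16 (SE; adjusted p = 0.024 by edgeR, 2.78e-07 by DESeq2). The SAL-LPS group was the one that stood apart: the unchallenged animals had medians of 3.41 (SAL-SAL, 0 to 13.6) and 2.48 (MOR-SAL, 0 to 6.5). Litter means were 1.21 to 5.3 over the 9 morphine litters and 0 to 0.192 over the 6 saline litters, with no overlap, but the fit to counts summed over litters did not call the gene (log2 fold change 6.37, adjusted p = 0.176 by edgeR). Of the exonic bases of Gm21984, 74.5% are shared with Kctd13 and Sez6l2 on the same strand, so its count is uncertain. Neither neighbour passed the test: Kctd13 had a log2 fold change of 0.34 (unadjusted p = 0.453 by edgeR) and Sez6l2 one of -0.14 (unadjusted p = 0.574 by edgeR).

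The call for Gm21984 depended on single libraries, although its direction did not. It passed in 21 of 38 fits that left out a library or a litter (adjusted p from 0.00483 to 0.26), and was lost without MOR-LPS 13-0 or without any SAL-LPS library other than 9-1. Without SAL-LPS 9-1, the 1 SAL-LPS library with counts, the log2 fold change was 8.28, and with all libraries kept it was 4.11 (adjusted p = 0.133 by edgeR). It was also not called in a fit of only the groups compared (6.05, adjusted p = 0.328 by edgeR).

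The other 9 genes with the smallest p among those higher in MOR-LPS each had an adjusted p of 0.176 by edgeR. DESeq2 called 8 of them: Asb4 (adjusted p = 1.41e-19), Tbx2 (0.00097), Itgam (0.00112), Siglech (0.00602), Cep78 (0.00978), Carlr (0.0185), Apobec3 (0.0367) and Mag (0.0496), but not Gm266 (0.145). Asb4 had counts in 5 of 14 MOR-LPS libraries and 0 of 9 SAL-LPS libraries. Its log2 fold change was 23.2 by DESeq2 and 7.82 ± 2.08 (SE) by edgeR, and without any SAL-LPS count its size is not determined. Itgam, which encodes the CD11b chain of the complement receptor of microglia and other myeloid cells, ran 0, 2.84 and 15.7 normalized CPM (lowest, median, highest) in MOR-LPS against 0, 0 and 0.535 in SAL-LPS. Its log2 fold change was 5.31 ± 1.31 (SE) and 10 of 14 MOR-LPS libraries lay above every SAL-LPS library. Exons of Itgam share 68.7% of their bases with Gm49368 on the same strand, which makes its count uncertain as well. Siglech, a lectin receptor of microglia and plasmacytoid dendritic cells, was found in 8 of 14 MOR-LPS libraries and reached 10.6 in MOR-LPS with a median of 0.99. All 9 SAL-LPS libraries held no count of Siglech, so that with 3 counts over the group as a floor it was at least 56.4-fold higher in MOR-LPS. Apobec3, an antiviral cytidine deaminase, ran 0, 0.593 and 45.8 in MOR-LPS against 0, 0 and 0.321 in SAL-LPS. All 3 genes had a higher median in the 5 MOR-LPS libraries high in oligodendrocyte markers than in the other 9. These medians were 6.45 against 1.07 for Itgam, 2.16 against 0 for Siglech and 8.63 against 0.255 for Apobec3. The ranges overlapped, at 3.26 to 12.3 against 0 to 15.7 for Itgam. They were 1.72 to 10.6 against 0 to 3.12 for Siglech and 2.79 to 45.8 against 0 to 8.15 for Apobec3. With the oligodendrocyte markers as a covariate the log2 fold changes were 3.57 for Itgam, 5.87 for Siglech and 3.48 for Apobec3.

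Both Cep78 and Mag were found in every library. Cep78, which encodes a centrosomal protein needed for cilia, ran 5.8, 24.6 and 35.4 normalized CPM in MOR-LPS against 3.64, 9.39 and 15.5 in SAL-LPS. The log2 fold change was 1.17 ± 0.31 (SE), and 11 of 14 MOR-LPS libraries lay above every SAL-LPS library. Mag, the myelin-associated glycoprotein of oligodendrocytes, ran 2.61, 28.7 and 247 in MOR-LPS against 1.58, 9.06 and 27 in SAL-LPS, with a log2 fold change of 2.23 ± 0.60 (SE). In the 5 MOR-LPS libraries high in oligodendrocyte markers Mag was at 39.8 to 247, and in the other 9 at 2.61 to 59.7. With all libraries high in those markers left out, its log2 fold change was 0.76 (unadjusted p = 0.154 by edgeR). Mag is itself 1 of those markers, so these libraries were chosen in part by its own level.

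Tbx2, Carlr, Asb4 and Gm266 were scarce and were led by 1 library. MOR-LPS 15-3, one of the libraries high in oligodendrocyte markers, was the highest for the transcription factor gene Tbx2 (22.6 normalized CPM), the long noncoding RNA Carlr (31.5), the ubiquitin ligase adaptor gene Asb4 (24.4) and Gm266 (33.3), and also for Siglech and Apobec3. The next MOR-LPS library was at 4.21 for Tbx2, 1.99 for Carlr, 9.52 for Asb4 and 1.31 for Gm266. In SAL-LPS, Carlr and Asb4 had no count in any library, and they were at least 65.5-fold and at least 66.8-fold higher in MOR-LPS against the floor of 3 counts. Without MOR-LPS 15-3 these bounds were 16.0-fold for Carlr and 29.3-fold for Asb4, and that of Siglech was 41.7-fold. Tbx2 had 406 counts in MOR-LPS and 1 in SAL-LPS (ratio after scaling 217, 95% counting interval 38.7 to 8580), and Gm266 had 328 and 1 (ratio 175, 31.2 to 6940). Without MOR-LPS 15-3 the ratios were 114 (20.3 to 4540) for Tbx2 and 16.3 (2.71 to 668) for Gm266. These intervals cover counting error only.

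**Figure D2:**
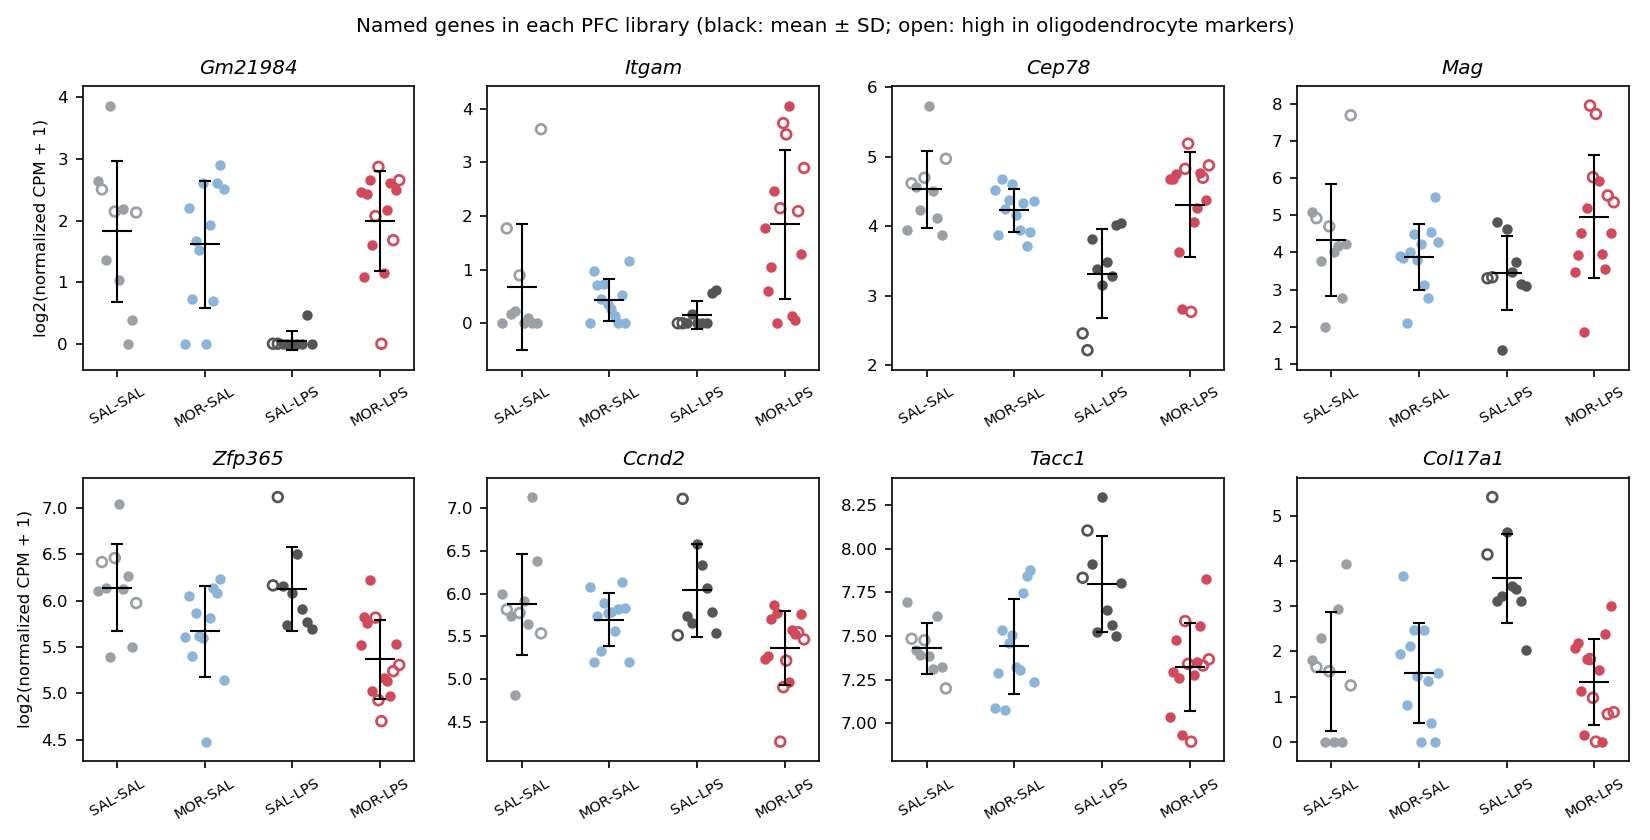
Normalized CPM of 8 named genes on a log2(CPM + 1) axis in each kept PFC library, by group, with the mean and SD in black and libraries high in oligodendrocyte markers as open circles. Gm21984 is at 0 in 8 of 9 SAL-LPS libraries, Cep78 is low in SAL-LPS, and Tacc1 and Col17a1 are high in SAL-LPS beside the other groups.

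Among the genes lower in MOR-LPS, each of the 10 with the smallest p had an adjusted p of 0.176 by edgeR. DESeq2 called Tacc1 (adjusted p = 0.0169), Gm14827 (0.0496) and RP23-441J16.4 (0.0499). Tacc1, which encodes a centrosome and microtubule protein, ran 118, 160 and 226 normalized CPM (lowest, median, highest) in MOR-LPS against 180, 222 and 313 in SAL-LPS. Its log2 fold change was -0.49 ± 0.14 (SE), and 11 of 14 MOR-LPS libraries lay below every SAL-LPS library. Zfp365, a zinc finger gene, ran 25, 37.7 and 73.8 against 50.8, 66.7 and 138 (log2 fold change -0.78 ± 0.21), with 10 libraries below the SAL-LPS range. Ccnd2, the cell cycle regulator cyclin D2, had a median of 44.2 and a highest value of 57.2 against 44.7, 54.4 and 137 (-0.73 ± 0.21). Dlg3, the postsynaptic scaffold protein SAP102, ran 41.6, 77.3 and 128 against 68.1, 94.7 and 355 (-0.72 ± 0.22).

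Col17a1, a transmembrane collagen chain, ran 0, 1.59 and 7 normalized CPM in MOR-LPS against 3.1, 9.38 and 41.7 in SAL-LPS. Its log2 fold change was -2.81 ± 0.83 (SE) and 10 of 14 MOR-LPS libraries lay below every SAL-LPS library. The unchallenged groups lay near MOR-LPS, with medians of 1.79 in MOR-SAL and 2.04 in SAL-SAL. Gm14827, a long noncoding RNA gene on the X chromosome, ran 2.1, 6.43 and 23.4 in MOR-LPS against 8.85, 16.5 and 37.9 in SAL-LPS (-1.16 ± 0.34), with 11 libraries below the SAL-LPS range.

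SAL-LPS 1-4 decided several of the lower values. It was the highest SAL-LPS library for Zfp365, Ccnd2, Dlg3, Col17a1, Tagap1 (119 normalized CPM), Adtrp (81.2), RP23-325M18.3 (60.1) and RP23-441J16.4 (50.6). The next SAL-LPS library was at 28.8 for Tagap1, 0.535 for Adtrp, 0.577 for RP23-325M18.3 and 2.98 for RP23-441J16.4. Without SAL-LPS 1-4, the log2 fold change of Adtrp went from -4.96 to 0.15, that of RP23-325M18.3 from -5.36 to -0.04, that of RP23-441J16.4 from -5.04 to -2.75, that of Tagap1 from -1.51 to -0.74 and that of Dlg3 from -0.72 to -0.41. Tacc1 (-0.46), Zfp365 (-0.63), Ccnd2 (-0.59), Gm14827 (-1.19) and Col17a1 (-2.42) still had an unadjusted p under 0.05 by edgeR without it.

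B020004J07Rik (chr4:101834969-101844023, minus strand, mm10) had a mean of 0.849 CPM. Its 373 SAL-LPS counts came almost wholly from libraries 1-4 (24.7 normalized CPM) and 3-3 (14.5), and 6 of 9 SAL-LPS libraries had none. MOR-LPS held 1 count, so that the scaled ratio of SAL-LPS to MOR-LPS was 698 (95% counting interval 125 to 27600). The adjusted p was 0.0174 by edgeR and 0.732 by DESeq2, and the edgeR call was lost without MOR-LPS 13-0, without SAL-LPS 1-4 or without SAL-LPS 3-3. After LPS in hippocampus edgeR called B020004J07Rik with the opposite sign, at a log2 fold change of 3.52 ± 0.86 (SE; adjusted p = 0.0314). That call rested on very low levels. The 15 morphine-exposed animals averaged 0.139 ± 0.236 (SD) on the normalized scale, and all 14 saline-exposed ones were at 0. Striatum (0.39) and hypothalamus (-0.63) gave no call.

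The lists for the pathways through which morphine and LPS act held no gene called by edgeR between MOR-LPS and SAL-LPS. The lists below were compiled for this tissue and treatment, and for each the number of members higher or lower at an unadjusted p under 0.05 is to be read against the 2.39% and 2.08% over all described genes. Of the 8 opioid receptor and peptide genes, 2 lay above 0 and 6 below, with a median log2 fold change of -0.33 and none at an unadjusted p under 0.05. Oprd1, the delta receptor, ran 0, 17.4 and 22.6 normalized CPM in MOR-LPS against 0.566, 25.3 and 50.6 in SAL-LPS (log2 fold change -0.80 ± 0.41; unadjusted p = 0.0576 by edgeR), and no MOR-LPS library exceeded the SAL-LPS median. Without SAL-LPS 1-4 it was -0.98 (unadjusted p = 0.00964, adjusted p = 0.266 by edgeR). Penk, the enkephalin precursor, had a log2 fold change of -0.44, Pdyn, the dynorphin precursor, -0.38 and Oprm1, the mu receptor, -0.28. The 20 genes of opioid receptor signalling had a median of -0.13, again with none at an unadjusted p under 0.05.

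The 3 lists of immune response genes held none that edgeR called between MOR-LPS and SAL-LPS. Of the 14 described NF-kB and acute inflammatory genes, 10 lay above 0 and 4 below (median 0.52), with none at an unadjusted p under 0.05, and 3 of the 23 listed genes were at 0 in every library. Nfkb1, the p105/p50 subunit, ran 40.8, 69.4 and 98.3 normalized CPM in MOR-LPS against 36.6, 70.8 and 110 in SAL-LPS, a log2 fold change of 0.03. Stat3, which carries the signal of interleukin-6 family cytokines, had a log2 fold change of 0.49 (unadjusted p = 0.119 by edgeR). Among 9 described interferon response genes, Stat2, a subunit of the type I interferon transcription factor, ran 18.1, 23.7 and 57.6 in MOR-LPS against 5.81, 14.8 and 26.8 in SAL-LPS. Its log2 fold change was 0.89 ± 0.27 (SE; unadjusted p = 0.00191, adjusted p = 0.176 by edgeR), and 14 of 14 MOR-LPS libraries lay above the SAL-LPS median.

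The 15 cytokine receptor and Toll-like signalling genes had a median of 0.19, with 1 member on each side at an unadjusted p under 0.05. Osmr, the oncostatin M receptor, had a log2 fold change of 3.39, with MOR-LPS at a median of 0.29 normalized CPM and SAL-LPS at 0. Il10rb, a shared chain of the interleukin-10 receptor family, had -3.53, which became -1.05 without SAL-LPS 1-4. Of the 14 described glucocorticoid-induced genes, Hif3a, an inhibitory hypoxia-inducible factor subunit, ran 1.61, 18.6 and 79.6 in MOR-LPS against 0, 4.52 and 10.8 in SAL-LPS (log2 fold change 2.14 ± 0.70; unadjusted p = 0.00359, adjusted p = 0.182 by edgeR). Fkbp5, a chaperone that restrains the glucocorticoid receptor, had a log2 fold change of 0.47, and the list had 7 members on each side of 0.

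Neuronal activity, synaptic and metabolic genes also gave no call. The 20 immediate early genes, which neuronal firing induces, had a median of -0.26 after LPS and -0.41 in the unchallenged animals. Nr4a1, a nuclear receptor of that class, ran 19.2, 96.9 and 158 normalized CPM in MOR-LPS against 54, 121 and 274 in SAL-LPS (log2 fold change -0.55; unadjusted p = 0.0528 by edgeR). Of 22 glutamate receptor genes 18 lay below 0 (median -0.12), and of 12 GABA-A receptor genes 8 did (median -0.09). For the 18 genes of glycolysis and glucose uptake 16 lay below 0 (median -0.30), and Pfkm, the muscle-type phosphofructokinase, and Pkm, pyruvate kinase, had an unadjusted p under 0.05. Their log2 fold changes of -0.43 and -0.60 became -0.15 and -0.29 without SAL-LPS 1-4, and for Pkm the MOR-LPS median (477 normalized CPM) was above that of SAL-LPS (310). Among 19 nuclear genes of oxidative phosphorylation the median was -0.12. Medians of the other lists were 0 for the circadian clock (14 genes), -0.04 for histone acetylation (22) and -0.16 for heat shock and chaperones (12), with no member at an unadjusted p under 0.05.

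**Figure D3:**
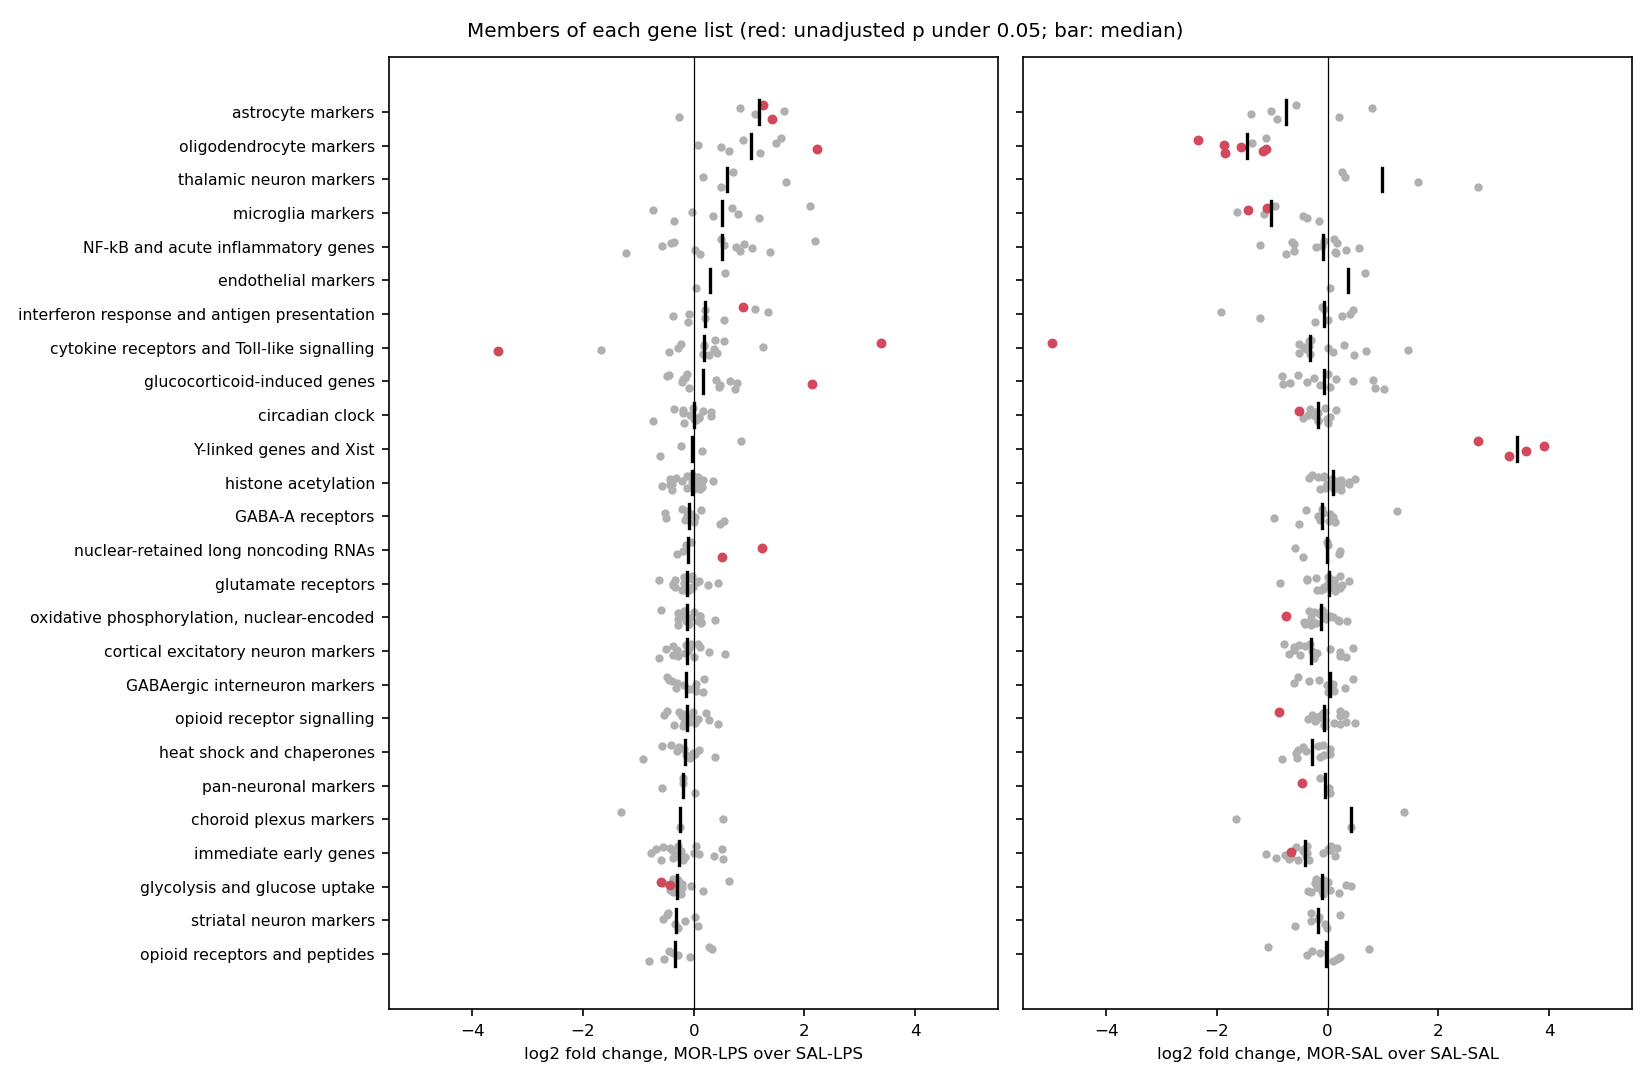
Log2 fold change of each described member of 26 gene lists, MOR-LPS over SAL-LPS at left and MOR-SAL over SAL-SAL at right, with the list median as a black bar and members at an unadjusted p under 0.05 in red. All 8 oligodendrocyte markers lie above 0 at left (median 1.04) and below 0 at right (median -1.46).

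Markers of oligodendrocytes, which the NeuN gate should remove, lay mostly above 0 for exposure in the challenged animals and below 0 in the unchallenged ones. In bulk libraries fewer cells of a type and less RNA per cell cannot be told apart. After LPS 8 of 8 oligodendrocyte markers lay above 0 with a median of 1.04, and 1 of them, Mag, had an unadjusted p under 0.05. In the unchallenged animals 8 of 8 lay below 0 with a median of -1.46, and 6 had an unadjusted p under 0.05. Summed oligodendrocyte markers ran 125.3, 262.1 and 2239 CPM in MOR-LPS against 95.21, 214.1 and 957.5 in SAL-LPS (exact two-sided permutation p = 0.2086; 0.1738 over litters). The sum ran 60.77, 159.5 and 243.6 in MOR-SAL and 31.44, 210.5 and 4493 in SAL-SAL. Library 9-4 was the highest of the SAL-SAL group. Libraries 1-3 (671.7) and 3-0 (619.8) of that group were also among those high in these markers, while no MOR-SAL library was.

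Of 6 astrocyte markers 5 lay above 0 after LPS (median 1.18; 2 at an unadjusted p under 0.05), and 4 lay below 0 in the unchallenged animals (median -0.75; none at an unadjusted p under 0.05). Slc1a3, the glial glutamate transporter GLAST, had a log2 fold change of 1.26 ± 0.47 (SE; unadjusted p = 0.00897, adjusted p = 0.209 by edgeR) and Aldh1l1, a folate enzyme of astrocytes, one of 1.42. Of 8 microglial markers 5 lay above 0 after LPS (median 0.52; none at an unadjusted p under 0.05) and none did in the unchallenged animals (median -1.03). Cx3cr1, the fractalkine receptor that defines microglia, went the other way after LPS, at -0.73. With the level of the oligodendrocyte markers as a covariate the list medians after LPS were 0.10 for oligodendrocytes, 0.71 for astrocytes and 0.05 for microglia. That covariate is the sum of the same oligodendrocyte markers, so the fall of their own list median was built in.

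Among neuronal classes, the 16 cortical excitatory markers had a median of -0.12 and the 12 interneuron markers -0.13. The sum of the excitatory markers ran 1117, 1564 and 1928 CPM in MOR-LPS against 1207, 1810 and 2191 in SAL-LPS (exact two-sided permutation p = 0.05154; 0.04995 over litters). Thalamic markers, 4 of 4 above 0 (median 0.60), summed to 7.913, 48.34 and 131.2 against 4.727, 17.96 and 50.56 (exact two-sided permutation p = 0.02427; 0.03257 over litters), and 8 striatal markers had a median of -0.32. Medians were -0.19 for 4 pan-neuronal markers, 0.30 for 2 endothelial markers and -0.25 for 3 choroid plexus markers, none of them with a member at an unadjusted p under 0.05. Of 6 nuclear-retained long noncoding RNAs 2 were higher at an unadjusted p under 0.05, Malat1 (0.52) and Neat1 (1.24), and the median was -0.10. The 4 described Y-linked genes had a median of -0.04 in this fit, which holds a term for sex. In the unchallenged animals, where 2 MOR-SAL libraries went against their labelled sex, all 4 were higher at an unadjusted p under 0.05 by edgeR (median 3.43). The median difference of the exposure effect between LPS and saline was -3.66 for these genes. After Benjamini-Hochberg adjustment over 14 library measures none passed; by the exact permutation test the smallest adjusted p was 0.3398 over libraries and 0.186 over litters.

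**Figure D4:**
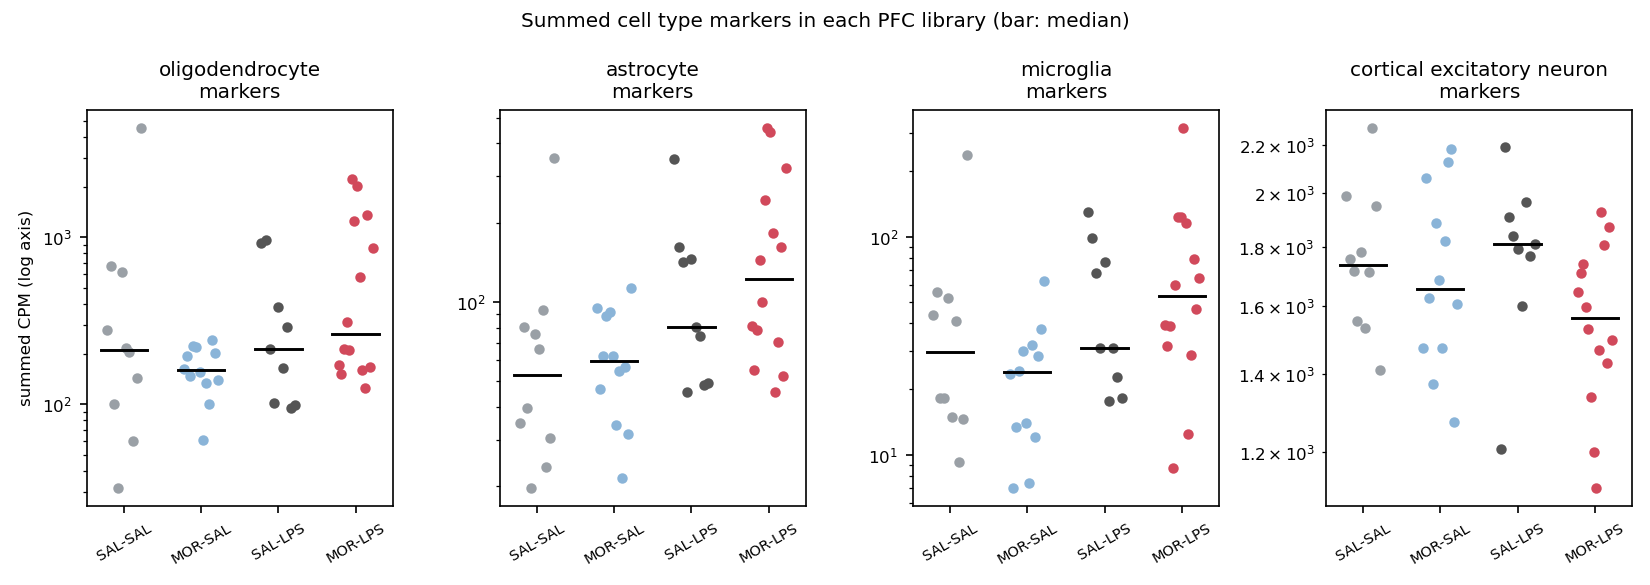
Summed CPM of the markers of 3 glial classes and of cortical excitatory neurons in each kept PFC library (log axes), by group, with the median as a bar. The MOR-LPS oligodendrocyte sums reach 2239 and overlap those of every other group, and 1 SAL-SAL library lies at 4493.

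Exposure without LPS gave no called gene in the PFC. By edgeR 0 of 21656 genes passed for MOR-SAL against SAL-SAL, with 2149 (9.92%) at an unadjusted p under 0.05, and DESeq2 called 14. Of the described genes 171 (1.21%) were higher and 206 (1.45%) lower at an unadjusted p under 0.05. The 10 genes named as higher in MOR-LPS had log2 fold changes there from -2.05 (Itgam) to 2.74 (Tbx2). Tbx2 had an unadjusted p of 0.0368 by edgeR there, and Mag, in the opposite direction at -1.12, one of 0.0467. Zfp365 was the one of the lower genes with an unadjusted p under 0.05 in the same direction without LPS, at -0.48 (p = 0.0303 by edgeR).

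When the exposure effect after LPS was tested against that without LPS, 283 genes were called (1.31% of those tested), 26 of them described (0.183%). Several were named above: Gm21984 (difference of log2 fold changes 6.59), Siglech (8.67), Itgam (7.36), Carlr (8.43), Mag (3.35) and Cep78 (1.54), with adjusted p from 0.0443 to 0.0482 by edgeR. For each of the 26, those just named among them, the 2 effects had opposite signs. These genes were picked for a large difference between the same 2 effects, which favours opposite signs. Without LPS, the effects of Gm21984 (-0.46), Carlr (-0.91) and Cep78 (-0.37) had unadjusted p of 0.215 to 0.579 by edgeR, so their sign was not established. Olfml1, an extracellular matrix gene, had log2 fold changes of 3.24 after LPS and -4.05 without. For Ttyh2, a chloride channel gene of the tweety family, these were 1.36 and -2.12. Ermn, a cytoskeletal protein of myelinating oligodendrocytes, had 2.88 and -3.30, and Fgfr2, a fibroblast growth factor receptor, 0.71 and -2.48, its SAL-SAL libraries running from 64.8 to 5330 normalized CPM. Adck5, a mitochondrial kinase-like gene, and Cxxc1, a subunit of the SET1 histone methyltransferase complex, had the negative sign after LPS, with -0.60 and 0.89 for Adck5 and -0.81 and 0.96 for Cxxc1.

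The calls were lost under other choices, and the sizes moved for some genes. A replicate block by litter, a correlation within litters and sums over litters each left 0 called (1081, 1195 and 2052 genes at an unadjusted p under 0.05), with differences under the block of 7.56 for Gm21984, 3.15 for Mag and 1.53 for Cep78. Leaving out the libraries high in oligodendrocyte markers, or the 2 that went against their labelled sex, left 0 called by edgeR (1560 and 2398 genes at an unadjusted p under 0.05). The count was also 0 when only genes averaging 1 CPM or more were tested (703 at an unadjusted p under 0.05). Without the libraries high in oligodendrocyte markers the difference was 6.40 for Gm21984, 6.22 for Olfml1 and 3.93 for Fgfr2. For Mag, itself 1 of the markers by which those libraries were chosen, it was 0.62. For Itgam it was 1.81, for Ermn 2.08, for Ttyh2 0.82, for Siglech 4.88 and for Cep78 1.14. Without the 2 libraries against their labelled sex the differences of Mag (3.18), Itgam (7.30) and Ermn (6.56) moved little, with adjusted p of 0.0545 to 0.0552 by edgeR.

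Sexes differed in the exposure effect after LPS for 2 genes (0.00924% of those tested), with 3463 (16%) at an unadjusted p under 0.05. Fam19a2, which encodes a secreted neuronal chemokine-like protein, was at 258 to 808 normalized CPM in 5 female SAL-LPS libraries and 24.3 to 125 in 4 male ones. In MOR-LPS females ran from 117 to 342 and males from 124 to 359. The difference of log2 fold changes, female less male, was -2.59 ± 0.47 (SE; adjusted p = 0.0235 by edgeR). Cxcl17, a mucosal chemokine, had 1 count among the 4 male SAL-LPS libraries, 3 of which were at 0, against 3.22 to 17.2 in the male MOR-LPS libraries (difference -8.12; adjusted p = 0.0414 by edgeR). In the female SAL-LPS libraries Cxcl17 ran from 0 to 12. Of the 4 male libraries on which both differences turned, 2 came from litter 1. Within males, edgeR called Cxcl17 (8.10) and Cracr2a (7.61), a calcium channel regulator; within females it called 0, with 2042 genes (9.43%) at an unadjusted p under 0.05. A fit of the male libraries alone called 0 genes (2975 at an unadjusted p under 0.05). DESeq2 called 301 genes for the difference between the sexes.

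The same animals were also sampled in other regions, and 34 gave kept libraries in both PFC and hippocampus and 32 in both PFC and striatum. The exposure effect after LPS differed between PFC and hippocampus for 2 of 13654 genes (0.0146%) and between PFC and striatum for 2 of 13689 (0.0146%), by limma-voom with the animal as a block. Gm21984 and Col17a1 were the 2 that differed from striatum. For Gm21984 the difference, PFC less striatum, was 4.96 on the log2 scale (adjusted p = 0.0347 by limma), and its mean in striatum was 1.78 ± 1.5 normalized CPM (SD, n = 18) in MOR-LPS against 1.27 ± 0.788 (SD, n = 15) in SAL-LPS. The difference from hippocampus was 4.01 (adjusted p = 0.212 by limma). The log2 fold change of Gm21984 after LPS lay above 0 in the other regions as well, at 0.72 in hippocampus and 0.49 in striatum. In hypothalamus it was 1.45 (unadjusted p = 0.0115, adjusted p = 0.171 by edgeR). Col17a1 differed by -3.45 from striatum (adjusted p = 0.0347 by limma) and by -4.38 from hippocampus (adjusted p = 0.174 by limma).

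From hippocampus the 2 genes that differed were Dnajb2, a co-chaperone, and Max, the partner of MYC. In the PFC, Dnajb2 ran 13.1, 23.9 and 92.1 normalized CPM after morphine exposure against 15.5, 34.7 and 67.8 after saline exposure (log2 fold change -0.31), while in hippocampus the means were 27.4 ± 10.3 (SD, n = 15) and 13.2 ± 4.7 (SD, n = 14). The difference, PFC less hippocampus, was -1.66 (adjusted p = 0.0492 by limma). Max ran 15.1, 26.8 and 68 in MOR-LPS and 0, 19.2 and 26.2 in SAL-LPS in the PFC (1.11), with hippocampal means of 28.9 ± 4.58 (SD, n = 15) and 33.1 ± 8.63 (SD, n = 14). The difference was 2.16 (adjusted p = 0.0493 by limma).

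Itgam and Mag were among the genes with the same direction in every region, without a called difference. Itgam had log2 fold changes of 2.72 in hippocampus, 1.63 in striatum and 0.48 in hypothalamus, and its difference from PFC had an adjusted p of 0.679 (hippocampus) and 0.475 (striatum) by limma. Mag had 1.53 in hippocampus (adjusted p = 0.041 by edgeR), 1.5 in striatum and 0.88 in hypothalamus, with differences from PFC of 0.21 and 0.13 for the first 2 regions. Cep78, at 1.17 in PFC, had 0 in hippocampus, -0.12 in striatum and -0.18 in hypothalamus (difference from striatum 1.4, adjusted p = 0.0631 by limma). Siglech had 1.26 in hippocampus, 1.02 in striatum and 3.09 in hypothalamus (unadjusted p = 0.00804, adjusted p = 0.15 by edgeR for hypothalamus). Tacc1, lower in PFC, had -0.23 in hippocampus, -0.13 in striatum and 0.41 in hypothalamus (adjusted p = 0.201 by edgeR for hypothalamus). Zfp365, also lower in PFC, had 0.24, 0.01 and 0.57 in these regions (adjusted p = 0.195 by edgeR for hypothalamus).

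**Figure D5:**
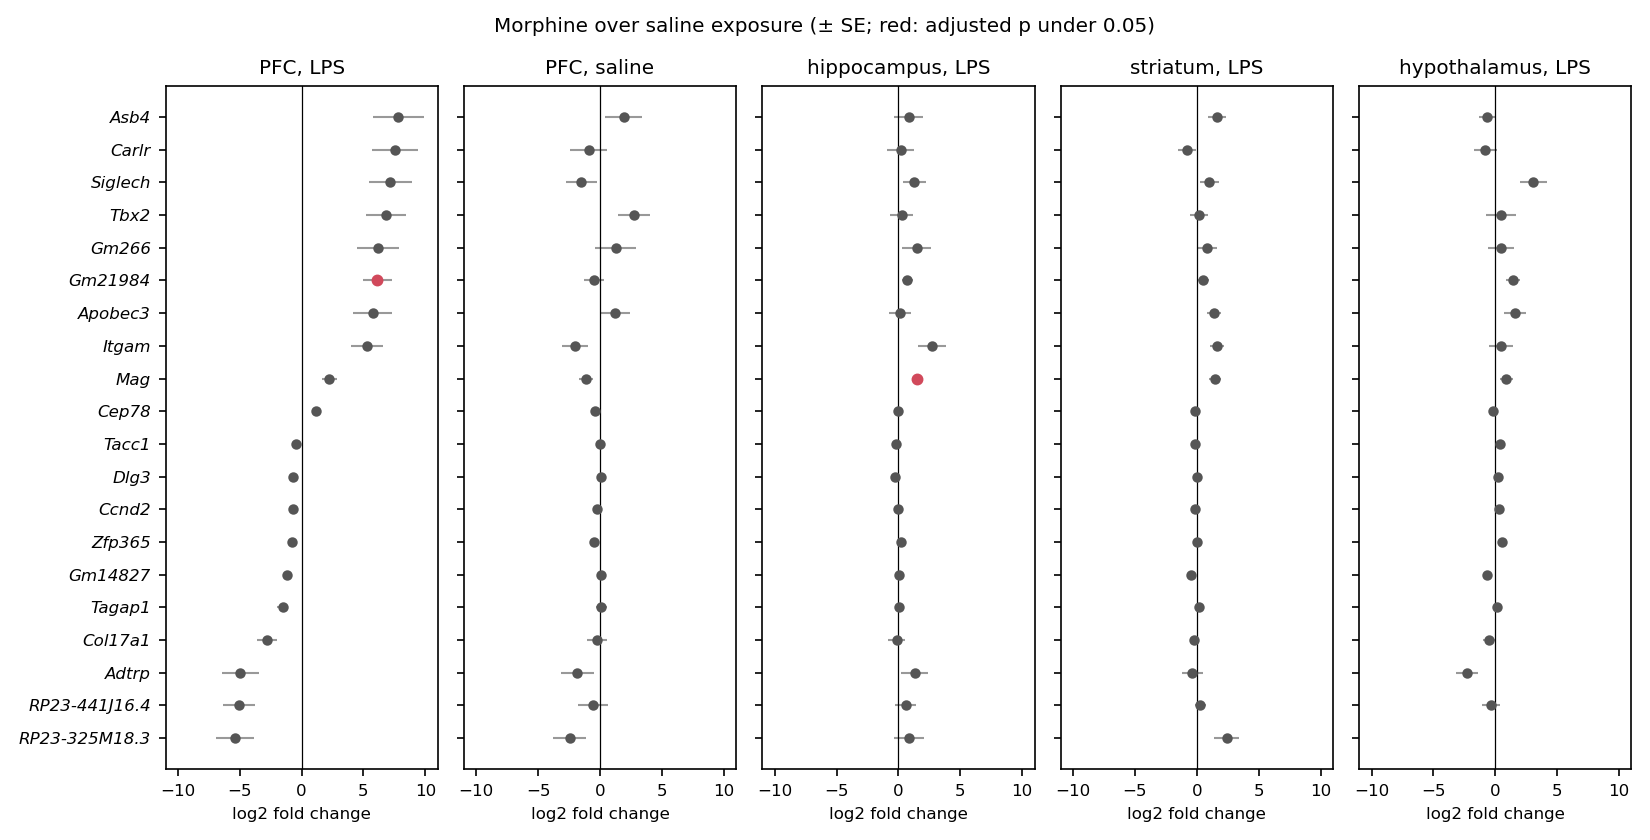
Log2 fold change (± SE) of morphine over saline exposure for the 10 named genes in each direction, after LPS in PFC, without LPS in PFC, and after LPS in hippocampus, striatum and hypothalamus. Red points passed the test, Gm21984 in PFC (6.13) and Mag in hippocampus (1.53), and a gene not tested in a region has no point.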

How the data were processed

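Nuclear RNA of NeuN+ nuclei sorted from punches of 4 brain regions was sequenced after a modified Smart-seq3 preparation. The authors trimmed reads with Trim Galore 0.6.7, aligned them to mm10 with STAR 2.7.10a and counted reads per gene with STAR, with a check by HTSeq 0.12.4; the deposited raw counts were used here, and whether counting used strand is not given in the sources used here. The deposited CPM tables equalled CPM recomputed from those counts without mitochondrial genes (largest difference 5.7e-14) and entered no test. Samples were grouped by the labels. The members and the gene lists were chosen with earlier results of these data known.

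Libraries with under 0.5 of the median total count of their region were left out (MOR-LPS 6-4 and 8-1 and SAL-LPS 4-4 in the PFC). Over the 253 pairs of kept MOR-LPS and SAL-LPS libraries the lowest chi-square per degree of freedom was 26.4, so none of these was a repeat of another. The unchallenged libraries were not compared in this way. MOR-SAL 15-2 and 16-3, both against their labelled sex, were close in summed Y-linked genes (141.9 and 142 CPM) and astrocyte markers (62.52 and 62.53). SAL-SAL 1-3 and 3-0 were close in summed pan-neuronal markers (6891 and 6904) and Y-linked genes (287.5 and 276.4). Whether either pair is a repeat was not tested. Genes with a total count above 10 were tested with edgeR 4.0.16 (TMM, quasi-likelihood, the 4 PFC conditions and sex in 1 fit, Benjamini-Hochberg threshold 0.05; R 4.3.3); litter was not a term. The difference between sexes used condition by sex groups, and that between regions limma 3.58.1 with voom, genes averaging 1 CPM or more in both regions, and the animal as a block (correlation 0.0189 with hippocampus, 0.0373 with striatum). The tables list genes in another order in the PFC than in the other regions (43932 positions differ), so genes were joined by name; over genes, the tested difference correlated with that of the separate edgeR fits at 0.775 for hippocampus and 0.755 for striatum. DESeq2 1.42.0 was an alternative. Normalized CPM are edgeR's TMM-scaled CPM. Library measures were compared with exact permutation tests, although p-values measure the spread between animals of a few litters. Total counts of 4866542 and more per library limit the precision of genes near 1 CPM, and intervals cover counting error only.

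Named genes were the called ones, the 10 of smallest p in each direction at a mean of at least 1 CPM, and of each list the 2 most abundant members and that of smallest p, of which the text gives a selection; other members, the genes called for a difference between conditions, sexes or regions, and Kctd13 and Sez6l2, were chosen after their values were seen. Positions and shared exonic bases are from GENCODE release M21 for mm10, while the study names vM25. On data simulated for MOR-LPS against SAL-LPS (20907 genes, 200 changed by 2 on the log2 scale), edgeR recovered 62% of the changed genes. It called 68 unchanged ones, 5 of them at 1 CPM or more. DESeq2 recovered 69% and called 33 unchanged ones, 30 of them at 1 CPM or more.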

Additional observations from a re-analysis of the deposited data

Results flagged for a closer look

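Of 70 groups of library values tested for a library far from the others of its group, 33 held one. Chance gives about 1 in 20 for evenly spread values, a rate that does not hold here, since most groups are of genes chosen for extreme values and in 4 the library was the 1 with any count. In SAL-LPS, library 1-4 stood apart for RP23-441J16.4 (50.6 normalized CPM), Zfp365 (138), RP23-325M18.3 (60.1), Tagap1 (119), Adtrp (81.2) and Dlg3 (355). Other SAL-LPS libraries stood apart for Gm21984 (9-1, 0.385), Tbx2 (3-3, 0.226), Gm266 (10-0, 0.163), the share of counts in Gm26917 and Rn18s-rs5 (3-3, 18.4%) and the astrocyte marker sum (1-0, 348 CPM).

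In SAL-SAL, library 9-4 stood apart for Siglech (45.6), Itgam (11.3), Mag (206), RP23-325M18.3 (0.822) and the summed markers of oligodendrocytes (4490 CPM), astrocytes (351), microglia (236), endothelium (10.3) and thalamic neurons (111). Library 4-1 did for Carlr (10.7), Cep78 (52.2), Zfp365 (131) and Gm14827 (38.0), and library 5-1 for RP23-441J16.4 (4.11), Ccnd2 (139) and the mitochondrial share (1.76%). Library 10-3 did for Gm21984 (13.6), Tagap1 (30) and the share of Gm26917 and Rn18s-rs5 (37.0%). The others were Asb4 in 4-3 (4.93), Col17a1 in 9-0 (14.4) and B020004J07Rik in 1-1 (0.113).

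The exposure effect differed between LPS and saline for 283 genes, of the named ones Gm21984 (6.59), Siglech (8.67), Itgam (7.36), Carlr (8.43), Cep78 (1.54), Mag (3.35) and B020004J07Rik (-8.59). It differed between the sexes for 2 genes, between PFC and hippocampus for 2 and between PFC and striatum for 2, the last being Gm21984 (4.96) and Col17a1 (-3.45). What part the libraries that stood apart had in these differences was not tested beyond the fits that leave them out.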

How the results depend on the processing

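The standard error was largest among the scarce genes, and the calls varied with the processing. The cause was not tested. For MOR-LPS against SAL-LPS, 2 genes were called as reported, 27 by DESeq2, 1 after filterByExpr, 1 among genes averaging 1 CPM or more, 1 with all libraries and 1 by limma on log2(CPM + 0.1). There were 0 in females only (2181 at an unadjusted p under 0.05), males only (2975), sums over litters (2201), limma on log2(CPM + 1) (920), a fit of only the groups compared (1999), and without libraries high in oligodendrocyte markers (1722) or without those and the 2 against the labelled sex (1624), both chosen after seeing the data. Leaving out a library or a litter gave 0 to 2, and SAL-LPS 1-4, SAL-LPS 3-3 or MOR-LPS 13-0 left 0. Adtrp reversed without SAL-LPS 1-4 (0.15) and without litter 1 (0.18), its other values without 1 library or litter reaching -6.86. Of 1210 refitted values of named genes, 1155 kept direction and side of the threshold, 41 lost the call and 12 gained it. Most of these genes were not called as reported and could not lose a call. Gm21984 was called in 12 of 20 alternative settings and in 21 of 38 fits that left out a library or a litter. For B020004J07Rik these were 8 of 15 and 29 of 38. For MOR-SAL against SAL-SAL, 0 became 14 by DESeq2. The 283 genes that differed between LPS and saline became 34 by DESeq2, 474 without the sex term and 91 with oligodendrocyte markers as a covariate. They became 0 by filterByExpr (804 at an unadjusted p under 0.05), averages of 1 CPM or more (703), females only (1962), males only (1762), a correlation within litters (1195), litter sums (2052), limma on log2(CPM + 1) (764) and log2(CPM + 0.1) (655), without libraries against the labelled sex (2398), without those high in oligodendrocyte markers (1560) and without both (1521). A replicate block by litter, possible for 38 libraries of 11 litters, called 0 of these (1081). The sex difference of 2 became 301 by DESeq2 and 1 with library size only. For PFC against hippocampus, 2 became 0 without the replicate block by animal and 4 at a mean CPM of at least 5; for striatum, the count was 2 without that block and 0 at 5 CPM.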
